A study of Arabidopsis thaliana with 8 samples.

Results

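Whole plants of Arabidopsis thaliana, accession Col-0, were compared after 7 days at 4 °C and before any cold, at 0 h. The comparison uses 4 of the 8 Affymetrix ATH1 arrays of the series, 2 per group, chosen by the treatment in the sample labels, and it covers all 22746 probe sets that are not array controls. Plants of both groups grew on agar plates in continuous light at 24 °C from seed stratified in the cold for 4 days, and were 10 days old when treatment began. The 0 h plants were harvested under those conditions at about 100 µmol of light per square metre per second, and the other plants spent 7 days at 4 °C under about 25 µmol. No genotype or chemical treatment separated the groups. Cold, dimmer light and 7 more days of age came together in the 7-day plants, no plants kept warm for 7 days were analysed here, and the effects of the 3 cannot be told apart.

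Plants from temperate regions become more tolerant of freezing after days at low, non-freezing temperature, a process called cold acclimation. CBF transcription factors switch on cold-regulated (COR) genes, whose products include dehydrins and chloroplast proteins that protect membranes and enzymes from the water loss of freezing. Over longer cold, sugars accumulate, leaves adjust photosynthesis to slower enzymes, and growth slows or resumes with altered cell walls.

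Values are MAS5 signals, which combine the probes of a probe set into 1 intensity and are scaled so that every array has nearly the same trimmed mean. Differences are log2 fold changes of signal + 8, as 7 days minus 0 h, where the added 8 damps the noise of dim probe sets and understates their change. A probe set was called when limma's adjusted p was under 0.05. The replicate arrays correlated at 0.961 (0 h) and 0.966 (7 days) across 15017 tested probe sets, and 2.26% and 2.14% of these were over 2-fold apart on them. The 3′ signal of the actin control relative to its 5′ signal is a measure of how intact the labelled RNA was. It stood at 3.84 and 2.95 at 0 h and 3.83 and 5.91 at 7 days, so 1 array of the 7-day group was high in it. That array was not high in the same ratio of the GAPDH control (1.44 and 1.3 at 0 h, 1.33 and 1.24 at 7 days). Nor was it high in that of the ubiquitin control (2.3 and 2.28, then 1.81 and 2.25). The 1 h and 24 h arrays, which share in the estimate of the spread, had actin ratios of 5.32 and 3.95 and of 6.53 and 3.44. The part of the actin ratio in the results was not tested. Leaf and root genes were both measured in these whole plants. The 3 measured Calvin cycle genes had a mean log2 signal of 11.46 and 11.97 on the 0 h arrays. PYK10, a beta-glucosidase abundant in roots, had signals of 2368 and 2177. The other tested root markers lay near the 0 h array medians of 41.73 and 42.32. EXPA7 read 37.3 and 41.6, and EXPA18 read 44.3 and 40.8. Only 3 of 14 root markers and 0 of 10 flower and seed markers had a probe set of their own in the annotation. In whole plants, fewer cells of a type and less RNA per cell cannot be told apart.

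After 7 days, 1378 probe sets were higher and 1611 were lower than at 0 h. Together they were 19.9% of the 15017 tested, 9.18% higher and 10.7% lower. Of these, 659 rose and 813 fell by at least 2-fold, which is 4.39% and 5.41% of those tested. On the scale of signal + 8 the very large changes were mostly rises. By at least 16-fold 12 probe sets rose and 3 fell, and by at least 32-fold 4 rose and 0 fell. By at least 4-fold 57 rose and 106 fell. The added 8 limits how large a fall to a signal near 0 can be. The probe set 247780_at, at -4.54 here, was at -6.98 with 1 added. A further 7729 probe sets were too dim for testing. Their differences lay between -1.88 and 1.89 on the log2 scale, a range that the filter and the added 8 limit in advance. Over all 22746 probe sets, 90% lay between -0.97 and 0.86, with a median of -0.06. For 59.9% of the tested probe sets, 26.9% higher and 33% lower, the arrays of one group lay wholly apart from those of the other, so that separation alone says little about a gene.

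**Figure D1:**
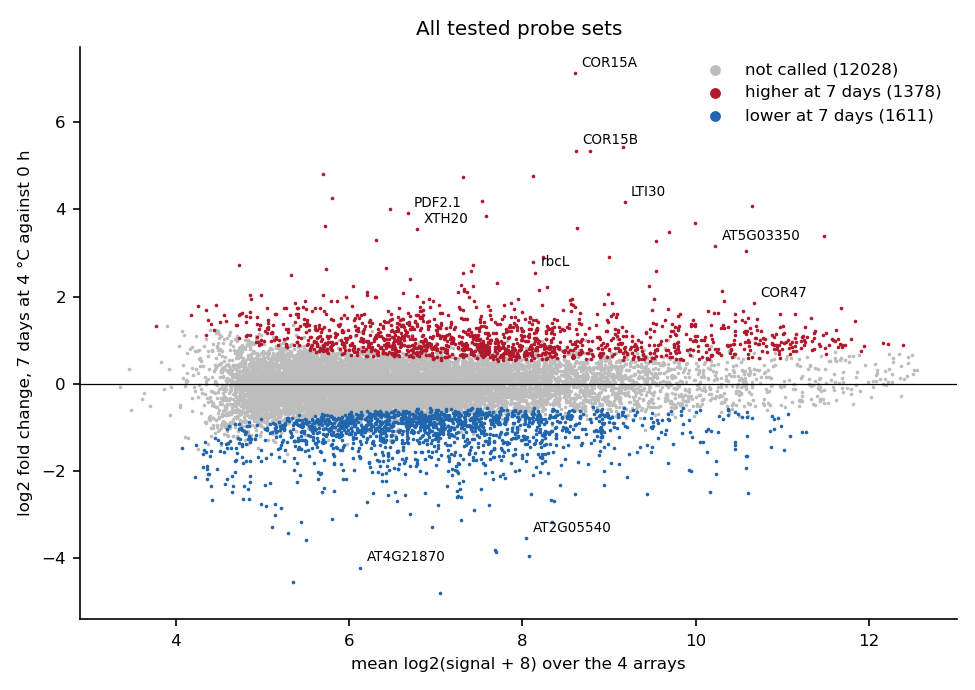
Log2 fold change at 7 days against 0 h (vertical axis) by mean log2(signal + 8) over the 4 arrays (horizontal axis), 1 point for each of the 15017 tested probe sets, coloured where called (1378 higher, 1611 lower). COR15A stands highest at 7.13, and the lowest point, an unnamed probe set, lies at -4.80.

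Calls were more frequent among bright probe sets. Of the brightest 3754 tested probe sets, 32.1% were called, with 702 higher and 502 lower. Of the dimmest 3755, 9.21% were called, with 127 higher and 219 lower. Standard errors had a median of 0.20 among the bright and 0.30 among the dim probe sets. Probe sets paired with 1 gene were called in 19.1% of cases and those absent from the annotation in 20.6%, so the unnamed probe sets hold a like share of the response. By name, 738 genes rose and 798 fell among 8033 tested. Between chromosomes the share called ran only from 18.5% to 20.6% of the genes tested.

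The 15 largest rises of named genes were led by COR15A and COR15B, whose products are chloroplast proteins that protect membranes during freezing. COR15A had signals of 31.6 and 19.7 on the 0 h arrays and of 4944 and 4316 on the 7-day arrays, which on the log2 scale is 7.13 ± 0.60 (fold change ± SE, limma adjusted p = 2.92e-05). COR15B went from 39.3 and 72 to 2655 and 2345 (5.35 ± 0.41, adjusted p = 1.6e-05). COR15A lay below the array medians of 41.73 and 42.32 before cold and COR15B about at or above them, and both were among the bright genes after it. The dehydrin gene LTI30 went from 192 and 85.9 to 2516 and 2396, a rise of 4.17 ± 0.29 (adjusted p = 7.34e-06).

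Genes outside the COR list rose by up to 4.80. AT1G80130 was at 55 and 37.5 before cold and at 1288 and 1621 after 7 days (4.76 ± 0.21, adjusted p = 4.79e-07). AT1G16850 was at 2.67 and 1.05 at 0 h and at 269 and 263 at 7 days (4.80 ± 0.22, adjusted p = 4.92e-07), and AT3G55580 at 7.73 and 2.38 and at 280 and 200 (4.26 ± 0.25, adjusted p = 2.14e-06). Both genes started from signals under the added 8, where the fold change is understated most. PDF2.1, a gene of the plant defensins, small secreted antimicrobial proteins, went from 18.2 and 18.6 to 558 and 271, and XTH20, which encodes an enzyme that cuts and rejoins xyloglucan in the cell wall, from 35.5 and 16.1 to 351 and 390. Their log2 fold changes were 3.91 ± 0.31 (adjusted p = 1.6e-05) and 3.55 ± 0.28 (adjusted p = 1.91e-05). ATPMEPCRB, a pectin methylesterase gene, rose from 24 and 28.6 to 201 and 215 (2.65 ± 0.21, adjusted p = 1.6e-05).

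Of the other genes among the 15, AT4G12490 rose by 3.58, AT4G30650 by 3.27, AT5G03350 by 3.15, AT5G55450 by 2.79, AT1G11210 by 2.63 and AT4G12500 by 2.59 on the log2 scale. AT5G03350 was the brightest of these at 7 days, with signals of 3220 and 3954 against 522 and 298 at 0 h. AT1G11210 was the least certain: its 0 h arrays read 3.74 and 31.1, its adjusted p was 0.011, and its call ended without 0 h replicate 1 (log2 fold change 1.76, adjusted p = 0.0774), 7-day replicate 1 (adjusted p = 0.0702) or 7-day replicate 2 (adjusted p = 0.0573). The other 14 kept their call with each of the 8 arrays left out.

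The 15 largest falls were all of genes known in the tables by a locus code alone. AT4G21870 went from 279 and 309 at 0 h to 2.83 and 16.4 at 7 days, a log2 fold change of -4.21 ± 0.31 (adjusted p = 1.03e-05). AT2G05540, the brightest of them before cold, went from 703 and 1136 to 100 and 47.2 (-3.54 ± 0.32, adjusted p = 5.92e-05). AT5G14120 was the most even between arrays, with 822 and 835 against 120 and 125 (-2.68 ± 0.21, adjusted p = 1.69e-05). All 15 were chosen among called genes without overlap between the groups, so by that choice the lower 0 h array lay above the higher 7-day array.

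A group of the falling genes reached signals so low that their fold change is understated. AT3G28270 stood at 1.28 and 7.7 after 7 days, against 124 and 117 before (-3.41 ± 0.32). AT3G24100 stood at 5.7 and 1.04 against 83.3 and 119 (-3.27 ± 0.35), and AT1G13650 at 1.91 and 6.86 against 87.2 and 63.3 (-2.76 ± 0.34). AT4G39675 (-2.86) and AT2G27420 (-2.81) likewise ended under 10. The remaining genes, AT1G04350 (-3.29), AT4G27450 (-3.13), AT4G33666 (-2.88), AT1G68440 (-2.78), AT3G56360 (-2.77), AT4G33660 (-2.68) and AT4G23670 (-2.66), were still measured at signals of 26.1 to 145 after 7 days. Adjusted p over all 15 ranged from 4.98e-06 (AT1G04350) to 0.0017 (AT4G33660), and all 15 kept their call with each array left out.

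**Figure D2:**
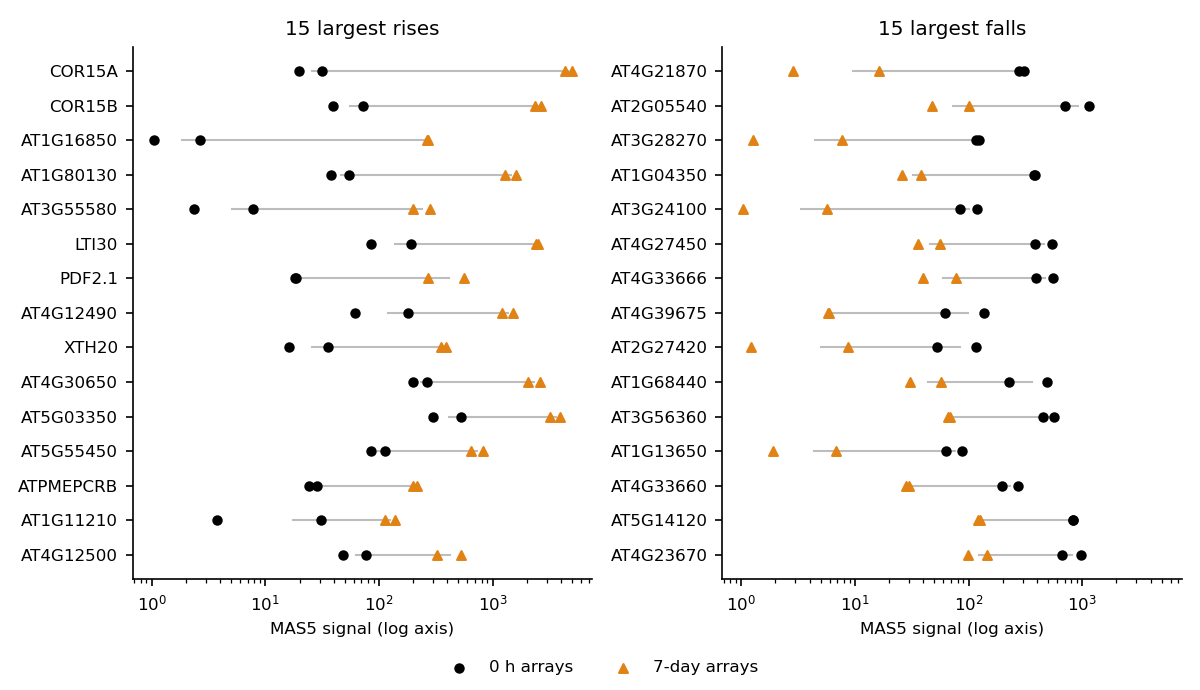
MAS5 signal (log axis) of the 15 named genes with the largest rises and the 15 with the largest falls at 7 days, with 1 black circle per 0 h array, 1 orange triangle per 7-day array and a line joining the group means. COR15A moves from 31.6 and 19.7 to 4944 and 4316, while AT4G21870 ends at 2.83 and 16.4.

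Some of the largest changes belong to probe sets with no gene in the annotation. The probe set 266385_at read 79.2 and 80.3 at 0 h and 3486 and 4048 at 7 days (5.42 ± 0.23, adjusted p = 4.79e-07), and 248337_at went from 63.5 and 58.8 to 2733 and 2813 (5.33 ± 0.31, adjusted p = 2.14e-06). In the other direction, 249774_at went from 672 and 707 to 18.4 and 15.8 (-4.80 ± 0.24, adjusted p = 6.18e-07). The signal of 247780_at, 203 and 177 at 0 h, was 0.584 and 0.444 at 7 days (-4.54 ± 0.29, adjusted p = 4.37e-06), and its fold change was -6.98 with 1 added in place of 8. Among named probe sets only COR15A rose more than 266385_at.

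Of 25 listed cold-regulated genes, 7 had a probe set of their own. All 7 rose, 100% called against 19.9% of all tested probe sets (9.18% higher). Their median log2 fold change was 2.24 against -0.05 over all tested probe sets. Besides COR15A, COR15B and LTI30 they were COR47, COR27, TIL and AT4G33980. COR47, a dehydrin gene, was already bright before cold at 752 and 962 and reached 3558 and 2659 (1.85 ± 0.28, adjusted p = 0.00105). TIL, which encodes a temperature-induced lipocalin, rose by 1.01 (adjusted p = 0.0026) and AT4G33980 by 1.29 (adjusted p = 0.043). COR27, a cold-induced regulator tied to the circadian clock, rose from 41.7 and 120 to 408 and 333 (2.24 ± 0.57, adjusted p = 0.0177). The COR27 call ended without 0 h replicate 1 (log2 fold change 1.56, adjusted p = 0.122), 7-day replicate 1 (adjusted p = 0.0981) or 7-day replicate 2 (adjusted p = 0.0771), and with no filter on dim probe sets (adjusted p = 0.0534).

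Few regulators of the cold response could be followed by name. STZ (ZAT10), which encodes a zinc finger repressor of stress responses, was at 41.2 and 28.4 at 0 h and at 110 and 88.1 at 7 days (1.33 ± 0.22, adjusted p = 0.00165). GI (GIGANTEA), a clock gene that also acts in flowering and freezing tolerance, was at 38.1 and 128 at 0 h and at 309 and 356 at 7 days (2.1 ± 0.43, adjusted p = 0.00588). Its 0 h arrays differed by more than its 7-day arrays. The estimate was 1.32 (adjusted p = 0.033) without 0 h replicate 1 and 2.88 (adjusted p = 0.000795) without 0 h replicate 2, and the call was lost without 7-day replicate 2 (2.00, adjusted p = 0.0529). IAA29, an auxin-response repressor gene, rose from 10.6 and 27.1 to 89.1 and 107 (2.05 ± 0.38, adjusted p = 0.0032). It was the 1 called gene of 4 tested IAA and GH3 genes (25%, against 19.9% of all tested probe sets). The transcription factor gene WRKY53 rose by 0.96 (adjusted p = 0.019) and was the 1 called of 5 WRKY genes (20%). It fell short without 0 h replicate 2 (0.79, adjusted p = 0.11), 7-day replicate 1 (adjusted p = 0.0563) or 7-day replicate 2 (adjusted p = 0.117). Of 8 bZIP genes tested, 0 were called by limma at an adjusted p under 0.05, and 2 had an unadjusted p under 0.05. FLC and VIN3, the vernalization genes, have no probe set paired with them and were not analysed here.

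SWEET sugar transporter genes changed in both directions. Of 9 tested, 1 rose and 3 fell, 44.4% called against 19.9% of all tested probe sets. SWEET13, which exports sucrose from leaf cells, rose from 44.2 and 36 to 195 and 198 (2.09 ± 0.20, adjusted p = 6.79e-05). SWEET17, a fructose carrier of the vacuole, fell from 333 and 356 to 110 and 76 (-1.82 ± 0.22, adjusted p = 0.000351). These 2 calls held with each array left out. Another vacuolar carrier gene, SWEET16, was at -0.88 (adjusted p = 0.041) and SWEET2 at -1.41 (adjusted p = 0.0315). After scaling every array to the same median, limma called neither of these 2 (adjusted p = 0.0525 and 0.0613). SWEET2 was not called without 0 h replicate 1 (-0.97, adjusted p = 0.196), 7-day replicate 1 (adjusted p = 0.137) or 7-day replicate 2 (adjusted p = 0.109). SWEET16 was not called without 0 h replicate 1 or 2 (adjusted p = 0.119 and 0.131), 1 h replicate 1 (adjusted p = 0.0557), 1 h replicate 2 (adjusted p = 0.057) or 7-day replicate 2 (-0.56, adjusted p = 0.266). TMT2, which encodes a sugar importer of the vacuole, rose by 0.84 (adjusted p = 0.00775), and ATSPS4F, a sucrose phosphate synthase gene, fell by 0.92 (adjusted p = 0.0118) but was not called without 0 h replicate 1 (adjusted p = 0.075) or 7-day replicate 2 (adjusted p = 0.0805).

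Among nuclear genes of photosynthesis, LHCB4.3 and PGRL1B fell. LHCB4.3, an isoform of the minor antenna protein CP29 of photosystem II, was at 437 and 305 at 0 h and at 69.9 and 41.5 at 7 days (-2.59 ± 0.40, adjusted p = 0.0012). PGRL1B, of cyclic electron flow around photosystem I, went from 162 and 195 to 41.2 and 38.9 (-1.95 ± 0.19, adjusted p = 0.00011). The other CP29 isoforms, LHCB4.1 and LHCB4.2, were at 0.05 and -0.35 (adjusted p = 0.923 and 0.324). In all, 2 of 9 tested genes of this list fell and 0 rose, 22.2% called against 19.9% of all tested probe sets, with a median of -0.31. The 3 Calvin cycle genes PRK, RCA and SBPASE lay between -0.38 and 0.18, and 0 were called (0 at an unadjusted p under 0.05).

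Of 4 chlorophyll synthesis genes tested, 2 rose, 50% called against 19.9% of all tested probe sets. CHLI2, a subunit of the magnesium chelatase, went from 171 and 138 to 373 and 401 (1.29 ± 0.18, adjusted p = 0.000776). PORB, which reduces protochlorophyllide in the light, went from 940 and 1702 to 2953 and 3369 (1.31 ± 0.31, adjusted p = 0.0119), and it fell short without 0 h replicate 1 (0.89, adjusted p = 0.0823) or 7-day replicate 2 (1.22, adjusted p = 0.0862). CHLM and GSA1 were at -0.46 and 0.31 (adjusted p = 0.112 and 0.384).

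Transcripts of the chloroplast genome gave 8 rises and 0 falls among 68 genes tested, 11.8% of them against 19.9% of all tested probe sets. The largest was rbcL, the large subunit of Rubisco, at 87.4 and 135 at 0 h and 748 and 609 at 7 days (2.55 ± 0.42, adjusted p = 0.00174). It was the 1 called gene of 35 for photosynthetic complexes, whose median was 0.15, and 0 of 9 ndh genes were called (2 at an unadjusted p under 0.05). Among 20 genes of plastid transcription and translation 5 rose (25% called), with a median of 0.55. These were the polymerase subunits rpoC2 (1.80), rpoC1 (1.50) and rpoB (1.01), and the ribosomal protein genes rps2 (1.48) and rps4 (1.00). The other polymerase subunit gene, rpoA, was at 0.04 (adjusted p = 0.947). The rises of ccsA, a cytochrome assembly gene (0.85), and clpP, a protease subunit (1.19), made up the 8.

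The 7-day arrays differed in several of these plastid genes. rpoC2 read 340 and 166 at 7 days against 68.1 and 57.7 at 0 h (adjusted p = 0.00284), rpoC1 600 and 338 against 151 and 157 (adjusted p = 0.0191), and rps2 726 and 407 against 207 and 173 (adjusted p = 0.0108). The array with the lower values of these genes had the actin ratio of 5.91, whose part was not tested. Other plastid genes were higher on that array, such as rpl33 (498 and 1527) and rps3 (718 and 1659). Over all 68 plastid genes the mean log2 signals of the 7-day arrays were 8.52 and 8.60. Without 7-day replicate 1, rpoC1 was at 1.09 (adjusted p = 0.151), rps2 at 1.07 (adjusted p = 0.0976) and rpoB at 0.96 (adjusted p = 0.0946). Nor was rpoC1 called with either 0 h array left out (replicate 1 adjusted p = 0.0681, replicate 2 adjusted p = 0.0574), rps2 without 0 h replicate 2 (adjusted p = 0.0536), and rpoB without 0 h replicate 1 (0.71, adjusted p = 0.142) or 7-day replicate 2 (adjusted p = 0.0792). rbcL and rpoC2 kept their calls with each array left out.

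Of 8 ribosome biogenesis genes tested, 5 rose and 0 fell, 62.5% called against 19.9% of all tested probe sets, with a median of 0.80, and all 8 estimates were above 0. AT3G15460 rose from 69 and 87.6 to 257 and 291 (1.71 ± 0.20, adjusted p = 0.00026) and AT3G05060 from 144 and 221 to 364 and 512 (1.24 ± 0.23, adjusted p = 0.00386). YAO, a nucleolar protein gene, rose by 1.10 (adjusted p = 0.00944), NRPA1, the largest subunit of RNA polymerase I, by 0.86 (adjusted p = 0.013) and IMP4, which acts in pre-ribosomal RNA processing, by 0.74 (adjusted p = 0.0283). Of 10 RNA polymerase subunit genes, NRPA1 among them, 4 rose and 0 fell (40% called), with a median of 0.59. The RNA polymerase II subunit genes NRPB9B and NRPB7 went from 53.4 and 36.5 to 112 and 122 (1.25, adjusted p = 0.00401) and from 66.5 and 49.1 to 162 and 130 (1.23, adjusted p = 0.00489). NRPB12 rose by 0.96 (adjusted p = 0.00718). Without 7-day replicate 2 the calls of YAO (0.74, adjusted p = 0.0917), NRPA1 (0.75, adjusted p = 0.0921) and NRPB12 (0.88, adjusted p = 0.0571) were lost, and without 0 h replicate 2 those of NRPA1 (adjusted p = 0.0898) and NRPB12 (adjusted p = 0.0702).

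Cell wall genes moved in both directions. Of 6 XTH genes 2 rose (33.3% called), XTH20 as above and XTH19 by 1.19 (adjusted p = 0.0413). XTH19 was not called without 0 h replicate 2 (0.82, adjusted p = 0.222), 7-day replicate 1 (adjusted p = 0.14) or 7-day replicate 2 (adjusted p = 0.151), and with no filter (adjusted p = 0.0999) or no intensity trend (adjusted p = 0.0534). Of 14 expansin genes, whose products loosen the wall, 1 rose and 2 fell, 21.4% called against 19.9% of all tested probe sets. EXLA2 rose from 17.9 and 14.5 to 71.4 and 75.4 (1.75 ± 0.23, adjusted p = 0.000487), with both arrays of each group close together. EXPA8 fell from 248 and 554 to 165 and 88.5 (-1.55 ± 0.39, adjusted p = 0.0166). The EXPA8 call ended without 0 h replicate 2 (-0.98, adjusted p = 0.125) or 7-day replicate 2 (-1.13, adjusted p = 0.149). EXPB3 was at -0.99 (adjusted p = 0.0159) but not called without 0 h replicate 1 (adjusted p = 0.103), 7-day replicate 1 (adjusted p = 0.0825) or 7-day replicate 2 (adjusted p = 0.0658).

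Among wall-modifying enzymes, GH9B13, an endoglucanase gene, went from 406 and 473 to 151 and 125 (-1.62 ± 0.18, adjusted p = 0.000247), the 1 called of 7 genes of its family (14.3%). Of 16 TBL genes, which act in acetylation of wall polysaccharides, 3 fell and 0 rose, 18.8% called and near the 19.9% of all tested probe sets, led by TBL36 from 302 and 413 to 90.2 and 92.4 (-1.86 ± 0.19, adjusted p = 0.000146). The falls of TBL38 (-0.95, adjusted p = 0.00866) and TBL25 (-0.75, adjusted p = 0.0282) were smaller. TBL38 was not called without 0 h replicate 1 (adjusted p = 0.059) or 7-day replicate 2 (adjusted p = 0.0688), nor TBL25 without 0 h replicate 2 (-0.54, adjusted p = 0.195), 7-day replicate 1 (adjusted p = 0.067) or 7-day replicate 2 (adjusted p = 0.141). Of 6 genes for RALF-like peptides, a family of secreted signals that restrain cell growth, 3 fell and 0 rose (50% called). Their median was -0.49. RALFL32 went from 210 and 187 to 104 and 78.9 (-1.06 ± 0.22, adjusted p = 0.00553), which missed the threshold without 7-day replicate 2 (-0.88, adjusted p = 0.0553). RALFL33 was at -0.60 (adjusted p = 0.0477), and limma did not call it after quantile normalization (adjusted p = 0.0546) or scaling every array to the same median (adjusted p = 0.09). RALFL31 was at -1.0 (adjusted p = 0.018), so the order below is RALFL31, then RALFL33. Neither was called without 0 h replicate 1 (adjusted p = 0.0525 and 0.0723), 0 h replicate 2 (-0.88 and -0.47, adjusted p = 0.116 and 0.238) or 7-day replicate 1 (adjusted p = 0.11 and 0.113), nor RALFL33 without 7-day replicate 2 (adjusted p = 0.167) or a 1 h array (adjusted p = 0.0618 and 0.062).

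**Figure D3:**
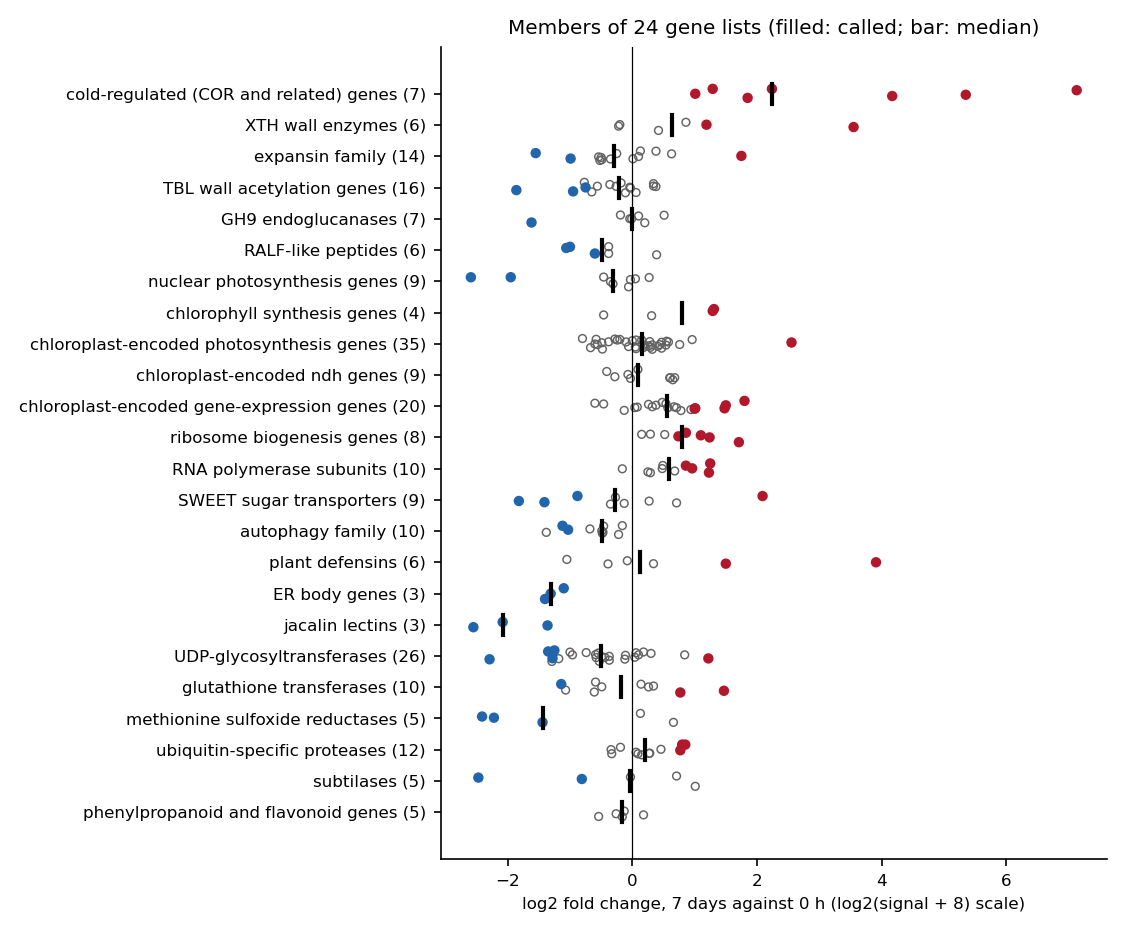
Log2 fold change at 7 days against 0 h of each tested member of 24 gene lists (number tested in brackets), filled where called and open where not, with a bar at the list's median. All 7 cold-regulated genes lie to the right, and the 3 ER body and 3 jacalin genes lie to the left, while most families hold called members on 1 side and many uncalled ones near 0.

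Of 6 plant defensin genes 2 rose, 33.3% called against 19.9% of all tested probe sets. These were PDF2.1, as above, and LCR69, from 1586 and 1460 to 4285 and 4354 (1.50 ± 0.20, adjusted p = 0.000642). The jasmonate-responsive defensin genes PDF1.2 and PDF1.2b were at -0.39 and -1.05 (adjusted p = 0.678 and 0.133). The 3 measured genes of ER bodies, compartments of roots and seedlings that store beta-glucosidase for defence, all fell. That is 100% called, against 19.9% of all tested probe sets (10.7% lower). PYK10, the stored enzyme, went from 2368 and 2177 to 998 and 731 (-1.40 ± 0.27, adjusted p = 0.00386). NAI1, the transcription factor of the pathway, was at -1.31 (adjusted p = 0.0137) and NAI2, needed to form the bodies, at -1.10 (adjusted p = 0.00686). NAI1 was not called without 0 h replicate 1 (adjusted p = 0.0794) or 7-day replicate 2 (adjusted p = 0.106), nor NAI2 without 7-day replicate 2 (-0.78, adjusted p = 0.0677).

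The 3 tested jacalin-related lectin genes fell as well (100% called, against 19.9% of all tested probe sets), with a median of -2.08. JAL22 went from 283 and 194 to 37.4 and 30 (-2.55 ± 0.33, adjusted p = 0.000482), JAL33 from 589 and 542 to 163 and 99.5 (-2.08 ± 0.31, adjusted p = 0.00105) and JAL34 from 779 and 631 to 287 and 250 (-1.36 ± 0.33, adjusted p = 0.0132). JAL33 lectin is known to associate with PYK10 complexes. JAL34 was not called without 0 h replicate 1 (adjusted p = 0.0694) or 7-day replicate 2 (adjusted p = 0.0908). PYK10 also counts among the root markers. The 3 measured root markers summed to signals of 2450 and 2259 on the 0 h arrays against 1086 and 818 on the 7-day arrays, nearly all of it PYK10, while EXPA7 (-0.35, adjusted p = 0.419) and EXPA18 (0.38, adjusted p = 0.387), expansin genes of root hairs, did not pass. The part of root content in the fall of these genes was not tested.

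Enzymes that modify small molecules were measured in several families. Of 26 UDP-glycosyltransferase genes, which attach sugars to hormones and secondary compounds, 1 rose and 4 fell, 19.2% called against 19.9% of all tested probe sets, with a median of -0.51 against -0.05. UGT71C1 fell from 53.8 and 36.9 to 3.17 and 2.39 (-2.29 ± 0.35, adjusted p = 0.00123), or -3.60 with 1 added to the signals in place of 8. UGT84A3 fell from 60.2 and 82.1 to 27.5 and 18.8 (-1.35 ± 0.24, adjusted p = 0.00247), while UGT72B3 rose by 1.22 (adjusted p = 0.00393). UGT85A2 was at -1.28 (adjusted p = 0.0141) and UGT73B1 at -1.25 (adjusted p = 0.0119), and both missed the threshold without 0 h replicate 1 (adjusted p = 0.0587 and 0.0714) or 7-day replicate 2 (adjusted p = 0.0504 and 0.0685), UGT85A2 also without 7-day replicate 1 (adjusted p = 0.0898) and UGT73B1 without 0 h replicate 2 (adjusted p = 0.0557). Of 10 glutathione transferase genes 2 rose and 1 fell (30% called), and GSTU18 was the fall, from 202 and 231 to 109 and 80.8 (-1.14 ± 0.20, adjusted p = 0.00272). The rises were GSTU25 (1.47, adjusted p = 0.00891) and GSTU20 (0.77, adjusted p = 0.0185), neither called without 0 h replicate 2 (adjusted p = 0.0551 and 0.136) or 7-day replicate 2 (adjusted p = 0.0633 and 0.124). Of 11 cytochrome P450 genes, all of the CYP71B subfamily except CYP78A9, 2 fell and 0 rose (18.2% called). These were CYP71B28 (-1.10, adjusted p = 0.0192) and CYP71B5 (-1.04, adjusted p = 0.0151), neither called without 0 h replicate 2 (adjusted p = 0.0976 and 0.125), and each dependent on a 7-day array (CYP71B28 without replicate 1, adjusted p = 0.143; CYP71B5 without replicate 2, adjusted p = 0.112). BGLU40 was the largest change of 9 beta-glucosidase genes other than PYK10, from 157 and 147 to 35.3 and 44.9 (-1.74 ± 0.23, adjusted p = 0.000602). Of 5 flavonoid and anthocyanin genes 0 were called (0 at an unadjusted p under 0.05), with DFR at -0.54 and UGT78D2 at 0.18.

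Methionine sulfoxide reductases, which repair oxidized methionine in proteins, included 3 falls among 5 genes, 60% called against 19.9% of all tested probe sets. The group was put together after its values had been seen. MSRB6 went from 282 and 435 to 51.9 and 67.9 (-2.41 ± 0.28, adjusted p = 0.00026). MSRB9 went from 240 and 130 to 22.4 and 43.8 (-2.22 ± 0.35, adjusted p = 0.00152), and MSRB5 from 292 and 285 to 115 and 89.1 (-1.44 ± 0.24, adjusted p = 0.00179). The 2 other members, MSRA5 and MSRB3, were at 0.13 and 0.66 (adjusted p = 0.717 and 0.0928).

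All 10 tested autophagy genes, which were ATG8 genes and ATG3, had estimates below 0, with a median of -0.48. Of them 2 fell, 20% against 19.9% called among all tested probe sets. ATG8F, of the ATG8 family that coats autophagosomes, went from 769 and 634 to 289 and 346 (-1.12 ± 0.22, adjusted p = 0.00485) and ATG8E from 223 and 152 to 103 and 72.1 (-1.03 ± 0.23, adjusted p = 0.0102). ATG8E was not called without 0 h replicate 1 (-0.76, adjusted p = 0.0905) or 7-day replicate 2 (adjusted p = 0.0936). The leucine breakdown genes MCCA, MCCB and IVD were at -0.79, -0.75 and -0.70 and missed the threshold (adjusted p = 0.172, 0.073 and 0.0592). Among subtilisin-like protease genes, SBT4.12 fell from 224 and 195 to 34 and 28.5 (-2.47 ± 0.26, adjusted p = 0.000146). The 2 tested vacuolar processing enzyme genes were both called, in opposite directions. BETA-VPE rose from 39.6 and 36.2 to 98.3 and 116 (1.32 ± 0.20, adjusted p = 0.00122). The brighter GAMMA-VPE fell from 1303 and 1927 to 1112 and 815 (-0.73 ± 0.23, adjusted p = 0.0422). GAMMA-VPE was not called by limma after scaling every array to the same median (adjusted p = 0.0845) or with only the 4 arrays compared (adjusted p = 0.0728). Of 16 serine carboxypeptidase-like genes 1 was called (6.25%). This was scpl35, which rose from 299 and 212 to 829 and 1016 (1.83 ± 0.21, adjusted p = 0.000238).

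Of 7 tubulin genes 2 rose, 28.6% called against 19.9% of all tested probe sets. TUB9 rose by 0.86 (adjusted p = 0.00899) and TUB5 by 0.82 (adjusted p = 0.0333). TUB9 needed 0 h replicate 2 (adjusted p = 0.0553 without it) and 7-day replicate 2 (adjusted p = 0.082), and TUB5 needed 0 h replicate 1 (0.54, adjusted p = 0.221), 7-day replicate 1 (adjusted p = 0.099) and 7-day replicate 2 (adjusted p = 0.139). Of 12 ubiquitin-specific protease genes, which remove ubiquitin from proteins, 3 rose, 25% called and near the 19.9% of all tested probe sets. These were UBP15 (0.85), UBP21 (0.80) and UBP23 (0.77), with adjusted p of 0.0112, 0.0269 and 0.0162. Without 0 h replicate 1 none of the 3 was called (adjusted p = 0.0944, 0.0582 and 0.108). UBP15 and UBP21 also missed the threshold without 7-day replicate 1 (adjusted p = 0.0664 and 0.0771), UBP21 and UBP23 without 7-day replicate 2 (adjusted p = 0.131 and 0.0994), and UBP21 without 0 h replicate 2 (adjusted p = 0.129). Several families of 5 to 12 tested members gave no call, against 19.9% called of all tested probe sets. These were 11 ubiquitin-conjugating enzyme genes (1 at an unadjusted p under 0.05), 8 PUB ubiquitin ligase genes (0), 12 ESCRT genes of membrane sorting (0), 5 TCA cycle genes (2) and 7 mitochondrion-encoded genes (1). With so few members, 0 calls do not show that a family was unchanged. The mitochondrion-encoded genes were also dim, with a mean log2 signal of 5.15 and 5.40 on the 0 h arrays, and dim probe sets were called less often. Of 3 reference genes used for quantitative PCR, 0 were called. AT2G28390 read 125 and 142 at 0 h and 136 and 131 at 7 days (0.00 ± 0.19, adjusted p = 0.999). PEX4 read 219 and 191 and then 288 and 256 (0.39 ± 0.18, adjusted p = 0.138).

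Of 2578 adjacent gene pairs with both members tested, 110 had both called, 18 of them both higher, 30 both lower and 62 in opposite directions. Of 489 tested neighbours of genes that rose, 7.36% rose too, against 9.17% of all named nuclear genes tested. Of 533 neighbours of genes that fell, 11.3% fell too, against 10% of all. The adjacent pairs called in the same direction with the largest changes included COR15B beside COR15A, MSRB5 beside MSRB6, JAL33 beside JAL34 and AT4G33660 beside AT4G33666. Whether probes of 1 member of a pair also read the other's transcript was not tested.

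To ask how far the state at 7 days differs from that at 1 day, the 7-day arrays were also compared with the 24 h arrays, from plants kept at 4 °C and in the same dim light for a day. In this comparison 1396 probe sets were called, 9.3% of those tested, with 726 (4.83%) higher and 670 (4.46%) lower at 7 days. The 24 h arrays had actin ratios of 6.53 and 3.44, whose part in these calls was not tested. The count fell to 291 and 714 without 7-day replicate 1 or 2, and to 718 and 599 without 24 h replicate 1 or 2. COR15A and COR15B did not pass it, with means of 6141 and 3554 at 24 h and of 4630 and 2500 at 7 days. LTI30 and COR47 were lower at 7 days than at 24 h, by 1.10 (adjusted p = 0.0355) and 1.28 (adjusted p = 0.0173) on the log2 scale. COR47 averaged 857 ± 149 at 0 h, 7649 ± 2384 at 24 h and 3109 ± 636 at 7 days (SD, n = 2).

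Other genes differed more from 0 h at 7 days than at 24 h. AT5G03350 averaged 410 ± 158 at 0 h and 521 ± 29.5 at 24 h but 3587 ± 519 at 7 days, and the difference between 7 days and 24 h was 2.76 ± 0.25 (adjusted p = 0.00018). The unnamed probe set 266385_at averaged 79.8 ± 0.799 at 0 h, 161 ± 53.2 at 24 h, where it was already called higher (0.91, adjusted p = 0.0124), and 3767 ± 397 at 7 days. MSRB6 averaged 318 ± 34.1 at 24 h and 59.9 ± 11.3 at 7 days (-2.27 ± 0.28, adjusted p = 0.000931), and LHCB4.3 236 ± 60.4 and 55.7 ± 20.1 (-1.95 ± 0.40, adjusted p = 0.0133). EXLA2 and GH9B13 showed the reverse order, with a larger departure from 0 h at 24 h than at 7 days. EXLA2 averaged 330 ± 18.6 at 24 h and 73.4 ± 2.85 at 7 days (-2.05 ± 0.23, adjusted p = 0.000619), and GH9B13 59.4 ± 1.17 and 138 ± 18.1 (1.11 ± 0.18, adjusted p = 0.00499). The log2 changes against 0 h at both times share the 0 h arrays. These genes were named for their 7-day calls against 0 h, which use the same 7-day arrays as the contrast with 24 h.

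**Figure D4:**
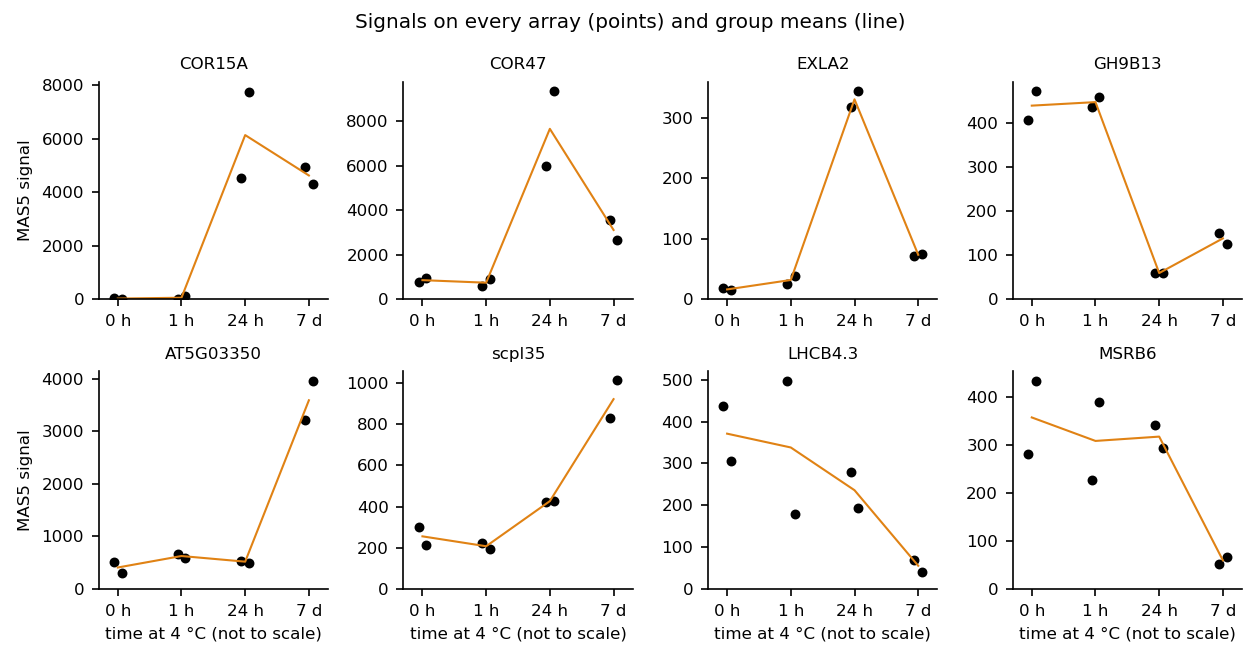
MAS5 signal on every array (points) and group means (line) of 8 genes by time at 4 °C, 2 arrays at each of 0 h, 1 h, 24 h and 7 days and every vertical axis starting at 0. COR47 and EXLA2 stand highest at 24 h, AT5G03350 and scpl35 stand highest at 7 days, and LHCB4.3 and MSRB6 stand lowest at 7 days.

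The number of calls rested on having both arrays of each group. Leaving out an array of the 0 h group took the 2989 calls to 1826 (replicate 1) or 1890 (replicate 2), and leaving out a 7-day array took them to 1970 (replicate 1) or 1472 (replicate 2). The balance of directions rested on scaling: 46.1% of calls were higher as reported and 58.4% (1653 rises and 1179 falls) after scaling every array to the same median. Array medians were 41.73 and 42.32 for the 0 h arrays against 39.52 and 38.49 for the 7-day arrays. No probe set called both as reported and under an alternative changed direction. For 7 days against 0 h, many alternatives could not show such a change. Another filter, no intensity trend, a replicate block, or a 1 h or 24 h array left out does not alter the estimate, only its spread or the adjustment.

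**Figure D5:**
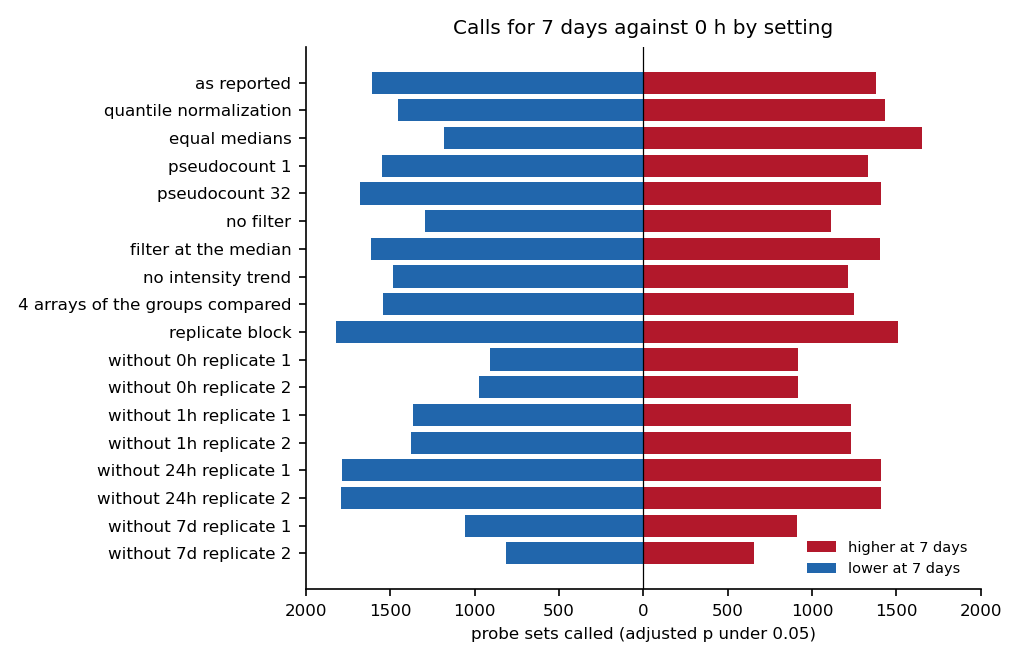
Number of probe sets called higher (right) and lower (left) at 7 days against 0 h under the reported setting and 17 alternatives. The total is 2989 as reported, falls to 1472 without 7-day replicate 2, and leans to rises (1653 against 1179) with equal medians.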

How the data were processed

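RNA of 8 samples was hybridised to one-colour ATH1 arrays. The deposited values are linear signal intensities that the authors made with MAS5, per the submitters' processing notes; the MAS5 version and settings, not given in the sources used here, stay unknown, as do detection calls. In the values, each array's mean without the top and bottom 2% of probe sets is 100.01. Of 22810 probe sets, 64 controls were left out, 13513 pair with 1 gene (platform annotation, updated through a RefSeq table of assembly TAIR10.1), 503 pair with several and 8730 are not listed.

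Signals were transformed as log2(signal + 8). A probe set was tested if above its array's 40th percentile on at least 2 arrays (15017 were). limma 3.58.1 (R 4.3.3) fitted a mean per group to all 8 arrays (4 residual degrees of freedom) with an intensity trend. P-values are two-sided, with Benjamini-Hochberg adjustment over the 15017, and 5077 had an unadjusted p under 0.05. With 2 arrays per group the number of arrays limits precision; the median SE was 0.236. The labels do not tell whether replicates were grown separately, so p-values measure the spread between samples that may differ only technically. The fit was tested on simulated data. Figures were drawn with matplotlib 3.10.9.

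The comparison and all gene lists were chosen with earlier results of these data known. Of 424 list entries, 99 had a probe set of their own; 71 lists were made, some by gene symbol, and 61 had a tested member. Named genes are the 15 largest called rises and falls of single-gene probe sets without overlap between groups, 2 unlisted probe sets each way, up to 4 called members of each list, and COR15A, COR15B, COR47, LTI30, PEX4 and AT2G28390. Other members are named as part of their list. Where a gene has several probe sets, the brightest stands for it; of 86 such genes 17 were called in some of their probe sets only, and 1, 2A6, in opposite directions (1.76 and -1.27).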

Additional observations from a re-analysis of the deposited data

Results flagged for a closer look

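By the limma contrast of 7 days and 24 h (adjusted p under 0.05), 35 of the 116 named genes and probe sets differed. Of these, 13 were higher and 22 lower at 7 days. Among all tested probe sets 9.3% differed. Most of the 116 were named for their calls between 7 days and 0 h. Those calls use the same 7-day arrays, so the shares are not comparable. Values are log2 differences, 7 days minus 24 h.

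Among genes above 0 h at 7 days, those higher still than at 24 h were 266385_at (4.51), AT5G03350 (2.76), AT4G12490 (1.70), AT5G55450 (1.44), scpl35 (1.09), WRKY53 (1.02) and CHLI2 (0.79). Those that stood lower than at 24 h were EXLA2 (-2.05), AT1G16850 (-1.86), BGLU25 (-1.36), COR47 (-1.28), LTI30 (-1.10), BETA-VPE (-0.97), YAO (-0.92), NRPA1 (-0.91) and TUB9 (-0.75).

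Among genes below 0 h at 7 days, those lower still than at 24 h were 249774_at (-2.28), MSRB6 (-2.27), 247780_at (-2.08), AT3G24100 (-2.0), LHCB4.3 (-1.95), UGT84A3 (-1.79), AT1G04350 (-1.68), AT4G21870 (-1.58), AT3G56360 (-1.31), SBT4.12 (-0.99), ATSBT5.2 (-0.99), ATSPS4F (-0.85) and TBL38 (-0.83). Those that stood higher than at 24 h were EXPA8 (1.70), GSTU18 (1.12), GH9B13 (1.11), ATG8F (0.85), CSLA03 (0.83) and TBL36 (0.69). Adjusted p ranged from 1.96e-06 (266385_at) to 0.0459 (TBL36).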

How the results depend on the processing

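For 7 days against 0 h, 2989 probe sets were called, and between 2409 (no filter on dim probe sets) and 3090 (pseudocount 32) under the other scalings, pseudocounts and filters, without the intensity trend, or with only the 4 arrays compared. Leaving out 1 array gave 1472 to 3202 calls. For 7 days against 24 h, 1396 were called, 808 with no filter, which tests 22746 probe sets, and 291 to 1354 with 1 array left out (718 and 599 without 24 h replicate 1 and 2, 291 and 714 without 7-day replicate 1 and 2). The replicate numbers are shared between groups by label only. With the number as a replicate block the counts were 3328 and 1644, while deviations of the same-numbered 0 h and 7-day arrays correlated at -0.209, so no pairing was assumed.

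Of 114 named genes and probe sets with a call, 65 kept it under all 17 alternatives. Of the calls kept, 0 changed direction, which many alternatives could not have shown because they leave the estimate as it was. Of 1968 combinations of gene and alternative, 173 ended a call; beside those given above they concern mainly small changes. With 32 added to the signals in place of 8, estimates of 18 named genes, most of them dim, shrank by over 1.5 times and stayed called, among them AT3G24100 (-1.90), UGT71C1 (-1.14) and EXLA2 (1.13). No detection calls were used here, so signals of a few units have no stated relation to background. Among the dimmest tested probe sets the called rises had a median of 1.27, against 0.92 among the brightest, so smaller changes of dim genes are less often called.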
